A study of Arabidopsis thaliana with 3 samples.

Results

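The 3′ untranslated region (3′ UTR) of a gene is the exonic sequence between the stop codon and the transcription end site (TES). The 3′ UTRs described here came from the longest mRNA of each protein-coding gene in the TAIR10.1 annotation. They had at least 100 exonic bases and did not overlap another gene. Of 27,444 protein-coding genes 23,614 had a 3′ UTR, and in 22,137 it reached 100 bases. A further 5,063 overlapped another gene and were left out, which gave 17,074 3′ UTRs, or 62.2% of the genes. Bisulfite sequencing of the whole genome (BS-seq) gave DNA methylation in mature leaves (Arabidopsis thaliana, ecotype Col-0), in 1 library of wild type (WT) and 2 libraries of an H3.3 knockdown (h3.3kd). In h3.3kd both HTR4 and HTR8 were disrupted by T-DNA (htr4-2 and htr8-2), and HTR5 was targeted by an artificial microRNA expressed from the HTR5 promoter. The libraries came from transgenic lines, and the labels give a replicate number but not which line each replicate was. The files held 822,515,332 to 842,326,850 cytosine calls per library over the 5 nuclear chromosomes, with a mean depth of 20.7 to 21.2 calls per cytosine in the 3′ UTRs. WT was not replicated, so an exact permutation of 1 library against 2 could not give a p below 0.333 for any level difference below. BS-seq holds no transcript, so neither the knockdown nor the leaf label could be checked.

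H3.3 is the H3 variant that chaperones such as HIRA deposit outside DNA replication, and in plants it is most abundant toward the 3′ ends of transcribed genes. Methylation of plant genes occurs in CG dyads of the transcribed region, is copied at replication by the maintenance methyltransferase MET1, and falls off toward the start and the end of the gene. Methylation in the other contexts, CHG and CHH (H is A, C or T), is a mark of transposons and of silent genes. The 3′ UTR carries the signals for cleavage and polyadenylation and lies where the methylated body of the gene gives way to the unmethylated end.

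The 3′ UTRs were short and poor in CG. Their median length was 273 bases (quartiles 205 and 376, longest 3279). The GC content was 33.1% against 44.6% over the coding end, which was the same number of coding bases just before the stop codon of the same genes. There were 1.74 CG dyads per 100 bases against 3.51 over the coding end. A 3′ UTR held a median of 4 dyads, and 932 had 0. The hexamer AATAAA, the canonical polyadenylation signal, was found on the coding strand in the last 50 bases of 11.2% of them. An intron after the stop codon was present in 1,213 (7.10%).

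The following windows show where in the 3′ UTR the change lay. They are 30 bases long and were cut from the TAIR10.1 reference around the CG dyad with the greatest change, in the 5 3′ UTRs that lost the most CG methylation and the 2 that gained the most among those with at least 5 dyads and 100 calls in every library (ranked by the smaller of the changes of both h3.3kd libraries). They are written on the strand of the gene, 5′ to 3′, with that dyad in capitals.
AT1G27430: gtcaacgtcagaggCGgcatcgtttagtga
AT5G27970: gattctgagaaccaCGgttcgatcatcaat
AT5G10780: taatccgctaaaacCGcgcgacaacgacaa
AT4G35880: gacagggagaaactCGtcttagcttggaaa
HAC5: atccaaatggcaggCGaatcaagaaagaat
AT1G32410: ttcgattgatgcttCGaaacgaaaacatct
POK1: ttgagagtatatatCGcacgagtcaaacct

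The windows of the 3′ UTRs that lost methylation lie at chr1:9521235-9521264 (minus strand), chr5:10015622-10015651, chr5:3409787-3409816, chr4:16995376-16995405 and chr3:4154554-4154583 (plus strand). In WT the dyad in capitals was methylated in 94.6% of 37 calls in AT1G27430, 100% of 28 in AT5G27970, 90.5% of 42 in AT5G10780, 86.7% of 45 in AT4G35880 and 94.1% of 51 in HAC5. In h3.3kd 1 and 2 the levels were at most 2.94% at these dyads. They lay 263, 207, 42, 78 and 73 bases after the stop codon. The windows that gained methylation lie at chr1:11695368-11695397 and chr3:5946247-5946276 (plus strand), 85 and 56 bases after the stop codon. The dyad of AT1G32410 was at 0% of 43 calls in WT against 85.7% (h3.3kd 1) and 81.2% (h3.3kd 2), and that of POK1 at 2.44%, 77.1% and 84.6%. The dyads of AT1G27430 and AT4G35880 lie in bases that another mRNA of the gene translates. These dyads were chosen for their change, so the values are a description.

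How much methylation did the 3′ UTRs hold, and how much less in h3.3kd? A level here is the share of C among the C and T calls of a set of cytosines. The CG level over all 3′ UTRs was 7.15% in WT (95% Wilson interval 7.13 to 7.18, which covers counting error only), 5.94% for h3.3kd 1 and 5.63% for h3.3kd 2. The h3.3kd mean was 5.78% ± 0.223 (SD, n = 2). Both h3.3kd libraries were below WT. The mean difference of -1.37 percentage points was greater than the -0.315 points between h3.3kd 2 and h3.3kd 1, and corresponded to -19.2% of the WT level. As the mean of site levels the difference was -1.31 points.

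The other contexts were near the floor. CHG was 1.35% in WT against 1.196% (h3.3kd 1) and 1.1998% (h3.3kd 2), and CHH was 0.828%, 0.785% and 0.792%. The CHG difference of -0.155 points shrank to -0.0545 points as the mean of site levels, and to -0.0496 points in genes with a CHG level under 5% over the gene and all libraries. As the mean of site levels, CHH was 0.768% in both WT and h3.3kd 1 and 0.754% in the other h3.3kd library, so WT and h3.3kd did not separate. The account below is therefore mainly of CG.

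The same genes were measured by part. In WT the CG level was 2.47% in 5′ UTRs, 19.3% in coding bases away from the stop codon, 16.7% in the coding end, 17.2% in introns, 7.15% in 3′ UTRs and 9.67% in the downstream flank, which had the length of the 3′ UTR and lay outside any gene. The coding end was at 13.7% (h3.3kd 1) and 13.0% (h3.3kd 2), which was -20.01% of the WT level and close to the -19.2% of the 3′ UTR. Coding bases away from the stop were at 17.7% and 17.3% (-9.17%), introns at 15.5% and 15.03% (-11.3%), and the downstream flank at 8.44% and 8.33% (-13.2%). The change relative to WT in the 3′ UTR was -17.0% (h3.3kd 1) and -21.4% (h3.3kd 2). That range overlapped the coding end (-18.1% and -21.9%) and lay beyond coding bases away from the stop (-8.29% and -10.06%) and introns (-9.96% and -12.6%) in both libraries. The 5′ UTRs lay nearer, at 2.08% and 2.11% (-15.8% and -14.8%). As means of site levels the 5′ UTRs were at 1.91% in WT against 1.86% (h3.3kd 1) and 1.84% (h3.3kd 2) and the flank at 8.42%, 7.97% and 7.78%, so both differences were smaller on that scale. The differences between parts were not tested.

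**Figure D1:**
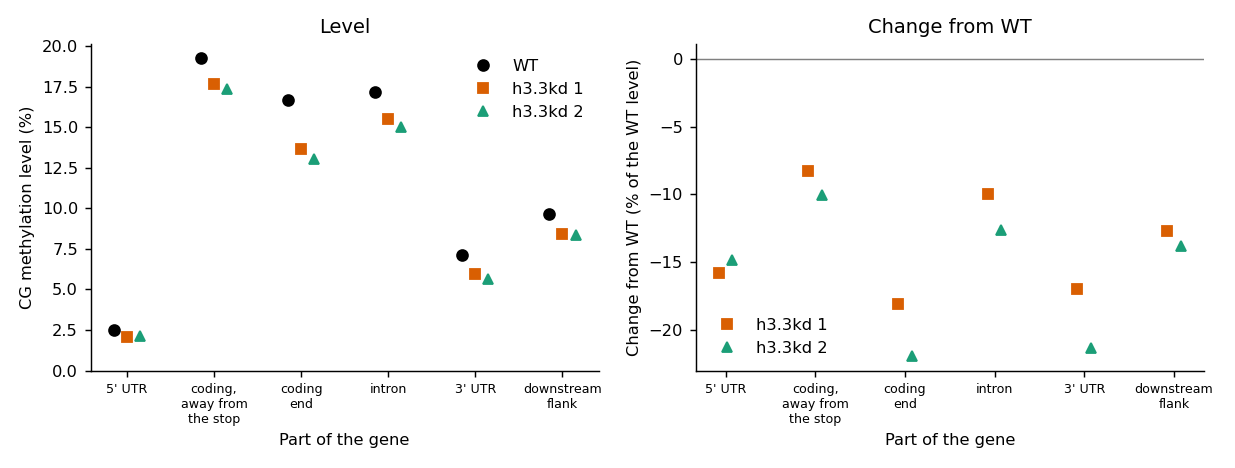
CG methylation level by part of the gene in each library (left, %) and change of each h3.3kd library from WT (right, % of the WT level), over the genes of the 17,074 3′ UTRs. Points are single libraries, and the 3′ UTR changed by -17.0% and -21.4%, next to -18.1% and -21.9% in the coding end.

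The level by distance showed where the methylated body ended. In WT it fell from 17.3% at 151 to 200 bases before the stop codon to 10.14% over the last 50 coding bases, 7.34% over the first 50 bases of the 3′ UTR and 5.87% between 100 and 150 bases after the stop. In h3.3kd 1 the same positions were at 13.97%, 8.03%, 5.85% and 5.15%, and in h3.3kd 2 at 13.3%, 7.27%, 5.45% and 4.75%. The relative difference was -24.6% over the last 50 coding bases, -23.0% over the first 50 bases after the stop and -15.7% between 100 and 150 bases. Farther into the 3′ UTR it did not narrow steadily, with -21.4% in the next 50 bases, -14.4% between 200 and 250 bases and -29.5% between 450 and 500. These bins do not hold the same 3′ UTRs, since only long ones reach the far bins. CG sites came from 9,286 genes in the first 50 bases, 6,504 between 200 and 250 and 1,514 between 450 and 500. A change with distance was not separated from this change of members. The stop codon was therefore inside a slope that began in the coding sequence and was lower in both h3.3kd libraries along its whole length.

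Seen from the TES, the lowest level lay inside the 3′ UTR. It was 3.77% in WT against 3.14% (h3.3kd 1) and 3.07% (h3.3kd 2) between 100 and 150 bases before the TES. Over the last 50 bases it was 4.63%, 4.05% and 3.91%. Outside the gene it rose to 6.01%, 5.10% and 5.01% over the first 50 bases and to 15.04%, 13.6% and 13.4% at 451 to 500 bases. The relative difference in the flank narrowed from -15.9% to -10.5% over that distance. Over the same bins CHG in WT rose from 2.13% to 5.50%, so the flank bins differed in more than CG. The genes with CG sites outside any gene fell from 7,964 to 4,948, so the bins did not hold the same genes.

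In the 13,153 3′ UTRs of at least 200 bases, the first 100 bases after the stop codon were at 7.09% in WT against 5.64% (h3.3kd 1) and 5.25% (h3.3kd 2) (difference -1.65 points, -23.2% of WT). The last 100 bases before the TES were at 4.11%, 3.52% and 3.40% (-0.656 points, -15.96%). As the mean of site levels this last difference was -0.386 points. Bases between were at 9.13%, 7.504% and 7.12% (-19.9%). Both h3.3kd libraries were below WT in each window.

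Long 3′ UTRs were the most methylated. The 3,921 shorter than 200 bases were at 5.21% in WT against 4.70% (h3.3kd 1) and 4.50% (h3.3kd 2). The 5,981 from 200 to under 300 bases were at 3.24%, 2.72% and 2.58%, and the 4,908 from 300 to under 500 bases at 5.43%, 4.32% and 4.24%. The 2,264 of 500 bases or more reached 12.2%, 10.06% and 9.39%. Within these long 3′ UTRs the first 100 bases were at 14.96% in WT, the bases between at 12.6% and the last 100 at 6.60%. The last 100 bases were thus the lowest of these windows. The values on either side of the length limit were as follows. The 344 3′ UTRs of 80 to 99 bases just under it were at 9.58% in WT against 9.38% (h3.3kd 1) and 8.32% (h3.3kd 2), and the 441 of 100 to 119 bases just above it at 7.42%, 7.33% and 6.45%.

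Part of the methylation in long 3′ UTRs lay in bases that another mRNA of the same gene translates. Such bases were found in 1,771 3′ UTRs, whose median length was 595 bases and of which 39.98% had an intron after the stop codon. These bases alone were at 17.9% in WT against 14.5% (h3.3kd 1) and 13.8% (h3.3kd 2), levels near those of the coding end. The other bases of the same 3′ UTRs were at 7.76%, 6.27% and 5.74%. The 15,303 3′ UTRs without such bases were at 5.44%, 4.50% and 4.30%, and there the difference was -1.04 points or -19.1%, so the relative change was that of all 3′ UTRs. Without them the 3′ UTRs of 500 bases or more remained the highest class, at 9.89% in WT against 8.27% (h3.3kd 1) and 7.70% (h3.3kd 2). The 1,213 3′ UTRs with an intron after the stop were at 14.5%, 11.9% and 11.04% in their exons and at 14.9%, 12.1% and 11.3% in the introns after the stop, and 708 of these 1,213 held bases translated in another mRNA.

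The level of the 3′ UTR followed that of the coding bases of the gene. Among genes with a CHG level under 5%, the 3′ UTRs of 7,839 genes with a coding CG level under 2% in WT were at 2.61% in WT against 2.30% (h3.3kd 1) and 2.21% (h3.3kd 2). Those of 2,723 genes at 20 to 40% were at 9.03%, 7.02% and 6.58%, and those of 2,253 genes at 40% or more at 12.3%, 9.32% and 8.29%. The relative difference was -13.5% in the lowest class, -13.1% at 2 to 10% and -28.5% in the highest. The classes were set by the only WT library, with which h3.3kd was also compared, and the effect of that choice was not tested. Within 3,973 genes whose coding end was at 20% or more in WT, the 3′ UTR was under 5% in 2,916 (73.4%), and their mean levels were 50.2% in the coding end and 10.6% in the 3′ UTR. The 447 3′ UTRs of genes with a CHG level of 5% or more stood apart, at 52.3% CG in WT against 49.6% (h3.3kd 1) and 48.6% (h3.3kd 2), a relative difference of -6.10%.

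**Figure D2:**
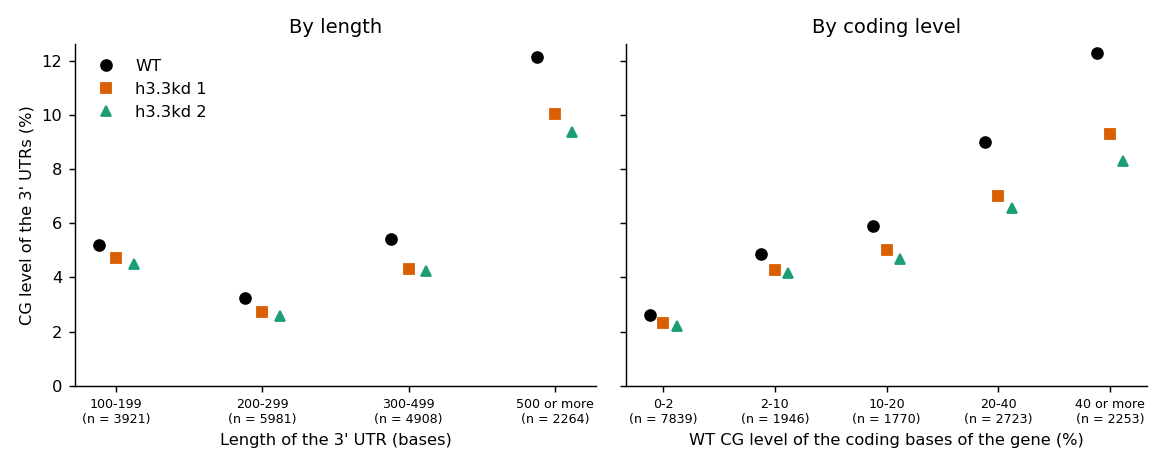
CG methylation level of the 3′ UTRs (%) in each library, by length of the 3′ UTR (left) and by the WT CG level of the coding bases of the gene (right, genes with a CHG level under 5%), with the number of 3′ UTRs per class. In WT the longest class was at 12.2% and the class with the most methylated coding bases at 12.3%, and both h3.3kd libraries were below WT in every class.

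The 3′ UTRs were also grouped by the next protein-coding gene downstream, called the next gene here. Other annotated genes that lay between were passed over. Where the next gene ran toward the 3′ UTR (convergent) and ended within 200 bases of the TES, the 2,171 3′ UTRs were at 8.06% in WT against 6.21% (h3.3kd 1) and 5.74% (h3.3kd 2) (-25.9%). Where a convergent gene was 1000 bases or more away, the 1,784 3′ UTRs were at 5.22%, 4.65% and 4.34% (-13.9%). With a next gene on the same strand within 200 bases, the 2,419 3′ UTRs were at 5.97%, 4.68% and 4.36% (-24.3%), and at 1000 bases or more the 4,339 were at 5.09%, 4.25% and 3.98% (-19.2%). The level did not follow the distance steadily, since in WT the classes from 500 to under 1000 bases were the lowest, at 4.57% (convergent) and 4.25% (same strand), and the same-strand class from 200 to under 500 bases was at 6.01%. These classes held genes with a CHG level under 5%. The coding level of the genes in these classes was not matched.

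Single 3′ UTRs were then compared. The C and T calls of either h3.3kd library were set against those of WT by Fisher's exact test, and p-values were adjusted by Benjamini-Hochberg over all parts of the genes. A call required an FDR under 0.01 and 20 points or more of the same sign in both h3.3kd libraries. It needed at least 2 CG dyads and 20 calls in every library, which 14,199 of the 17,074 had. These tests compare libraries, not conditions. Most 3′ UTRs were too low to fall by 20 points: 83.6% were under 2% in WT, and 1,137 (8.01%) were at 20% or more, against 921 (h3.3kd 1) and 864 (h3.3kd 2).

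In CG, 182 3′ UTRs were called lower in h3.3kd (1.28%, against 1.55% of all gene parts tested), and 27 were called higher (0.19%, against 0.26% of all gene parts). The share of 3′ UTRs called was thus near that of gene parts in general. Lower calls made up 16.01% of the 1,137 3′ UTRs at 20% or more in WT. The same share was 17.2% in the coding end, 10.6% in the downstream flank, 4.49% in introns, 4.21% in 5′ UTRs and 1.38% in coding bases away from the stop, parts that differ in length and in the number of dyads. Between h3.3kd 2 and h3.3kd 1 a single test at the same thresholds called 53 lower (0.373%, against 0.385% of all gene parts) and 17 higher (0.12%, against 0.16%). The like counts are those of a single h3.3kd library against WT, since the 182 and 27 had to pass in both. Against WT, h3.3kd 1 alone gave 219 lower (1.54%, against 1.91% of all gene parts) and 70 higher (0.493%, against 0.548%). The library h3.3kd 2 alone gave 269 lower (1.89%, against 2.29%) and 41 higher (0.289%, against 0.409%). With limma, which sets the difference against the spread of the h3.3kd pair, 0 were lower and 0 higher at an adjusted p under 0.05 and 20 points. Among those that also differed by 20 points or more, 141 and 36 had an unadjusted limma p under 0.05. The smallest limma adjusted p was 0.389.

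**Figure D3:**
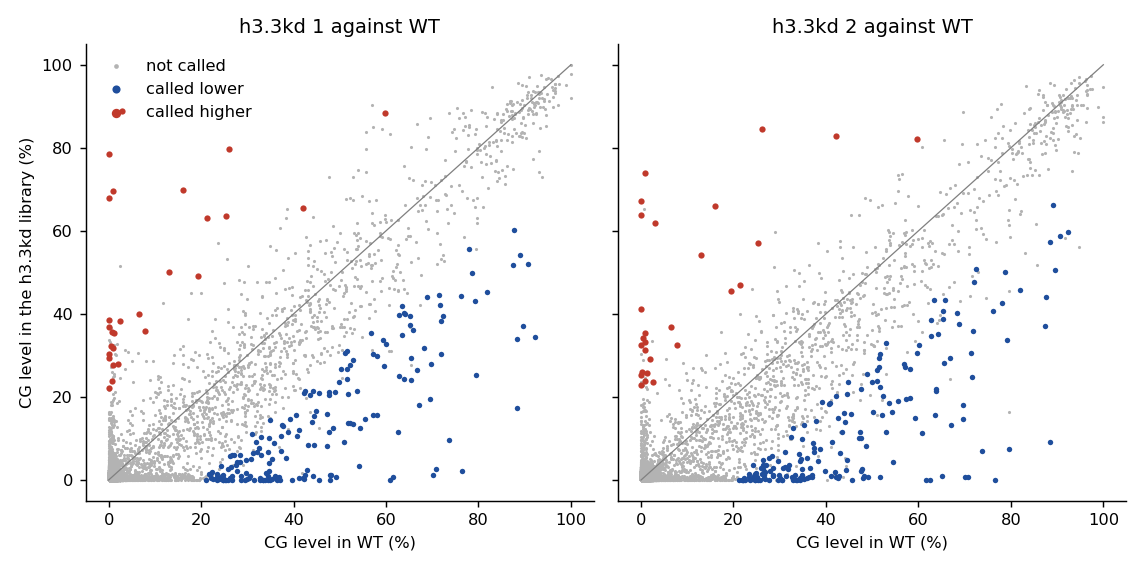
CG methylation level (%) of 14,199 3′ UTRs in h3.3kd 1 (left) and h3.3kd 2 (right) against WT, each point a 3′ UTR and the line equality. The 182 called lower (blue) include 71 that lie under 5% in both h3.3kd libraries, and 17 of the 27 called higher (red) lie under 5% in WT.

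Levels of the 182 averaged 46.3% in WT against 14.1% (h3.3kd 1) and 13.2% (h3.3kd 2), and 71 were under 5% in both h3.3kd libraries. These values follow from the call. The neighbouring parts of the same genes were not used in it. Their coding ends were at 40.4% in WT against 34.4% (h3.3kd 1) and 33.3% (h3.3kd 2), and the flanks at 18.2%, 14.7% and 14.6%. Over all tested genes the coding ends were at 17.08%, 13.96% and 13.35%, and the flanks at 9.70%, 8.46% and 8.32%. For the 1,137 at 20% or more in WT they were at 43.2%, 37.4% and 36.8%, and at 31.9%, 29.2% and 28.6%. Lower levels in both parts were thus not particular to the called genes. Whether the size of the drop differed was not tested. CHG over the 182 3′ UTRs was 2.21%, 0.824% and 0.836%. It was 5.75%, 4.59% and 4.60% over the 1,137, and 1.69%, 1.28% and 1.34% over the 911 of them in genes with a CHG level under 5%. The 182 include AT3G27250, AT3G09960 and COBL5, which were also called lower in CHG (below). Their part in the CHG difference was not separated. Bases translated in another mRNA were present in 39 of the 182 (21.4%, against 12.2% of all tested). The share was 33.7% among the 1,137 at 20% or more in WT. A lower call needed such a WT level, so this is the closer comparison. The 27 called higher had mean levels of 9.30%, 48.9% and 45.9%, which also follow from the call. Their coding ends were at 36.6%, 38.5% and 36.1%, and their flanks at 18.5%, 32.0% and 30.5%.

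CG dyads were followed one by one where each library had at least 10 calls. Of 95,542 dyads 6.86% were methylated (level of 60% or more) in WT against 5.44% (h3.3kd 1) and 4.98% (h3.3kd 2). Of those methylated in WT 12.6% (h3.3kd 1) and 14.2% (h3.3kd 2) were unmethylated, which is a level under 10%. Between the h3.3kd libraries 2.96% of the dyads methylated in h3.3kd 1 were unmethylated in h3.3kd 2, and 2.31% in the reverse direction. In the reverse comparison, 6.52% of the methylated dyads of h3.3kd 1 and 5.26% of those of h3.3kd 2 were unmethylated in WT. Of the dyads unmethylated in WT 0.388% and 0.286% were methylated in h3.3kd 1 and 2.

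The loss of dyads in both h3.3kd libraries covered 648 of 6,551 methylated WT dyads (9.89%), in 437 3′ UTRs. The share was 11.98% within 100 bases of the stop codon, 9.53% from there to 200, 8.58% from there to 300, 10.33% from there to 500 and 7.85% beyond 500 bases. By distance to the TES it was 4.89% in the last 100 bases, 9.27% from there to 200, 13.2% from there to 300, 11.8% from there to 500 and 9.08% beyond 500. The share was lowest within 100 bases of the TES. These shares were not tested against each other.

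The 10 3′ UTRs named here were called lower with the largest differences among those with at least 5 dyads and 100 calls in every library. AT1G27430, which encodes a GYF domain protein, had the largest. Its 3′ UTR (chromosome 1, minus strand, 9520825 to 9521717, 688 exonic bases in 3 exons) was at 67.1% in WT against 18.0% (h3.3kd 1) and 13.3% (h3.3kd 2) over 22 dyads and 774 to 789 calls. Another mRNA of the gene translates 452 of the 688 bases. Of the 22 dyads 17 were methylated in WT against 1 (h3.3kd 1) and 0 (h3.3kd 2), and 8 went from methylated to unmethylated in both. The 1 in h3.3kd 1 was not among the 17: it lay 354 bases after the stop codon, at 6.25% in WT and 61.1% in h3.3kd 1. The coding end before it was at 70.3%, 60.8% and 59.3%, so the difference there was smaller. The Fisher adjusted p values were 8.6e-86 and 1.39e-107, and the limma adjusted p was 0.389.

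AT5G27970 encodes an ARM repeat protein. Its 3′ UTR (chromosome 5, plus strand, 10015430 to 10015739) was at 49.2% in WT against 0.844% (h3.3kd 1) and 0.722% (h3.3kd 2), with 7 dyads, and 90 of its 310 bases are translated in another mRNA. The 4 dyads methylated in WT, 139 to 212 bases after the stop codon, were unmethylated in both h3.3kd libraries. The coding end was at 53.2%, 16.3% and 46.0%, so h3.3kd 1 was low there and h3.3kd 2 was not.

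AT5G10780 encodes a subunit of the ER membrane protein complex. Its 3′ UTR (chromosome 5, plus strand, 3409760 to 3410076) was at 54.4% in WT against 12.4% (h3.3kd 1) and 4.31% (h3.3kd 2). Another mRNA translates 25 of its 317 bases. The coding end was at 0%, 0% and 0.990%, so the methylation began after the stop codon. In WT 4 of 6 dyads were methylated, all 42 to 52 bases after it, and 0 in either h3.3kd library. The next protein-coding gene, on the same strand, started 8 bases after the TES. AT5G10780 lies within 1 Mb of HTR8 (3′ UTR at 3472405 to 3472590 on chromosome 5), which is disrupted by T-DNA in h3.3kd. A link of the change to that insertion was not tested.

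AT4G35880 encodes an aspartyl protease. Its 3′ UTR of 427 bases (chromosome 4, plus strand, 16995313 to 16995821) was at 42.2% in WT against 0.273% (h3.3kd 1) and 0.775% (h3.3kd 2), and 296 of its bases are translated in another mRNA. The coding end kept 55.0%, 48.0% and 42.6%. HAC5 is a histone acetyltransferase of the CBP family. Its 3′ UTR (chromosome 3, plus strand, 4154496 to 4154895, 400 bases) was at 42.6% in WT against 1.32% (h3.3kd 1) and 0.410% (h3.3kd 2), behind a coding end at 82.2%, 74.1% and 70.2%. All 3 of its WT-methylated dyads lay 43 to 73 bases after the stop codon and were unmethylated in both h3.3kd libraries. The 3 dyads farther on were unmethylated in every library.

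AT5G18640, annotated as an alpha/beta-hydrolase, had 41.1%, 0.483% and 0.952%, with its 2 methylated dyads 14 and 21 bases after the stop codon. AR791, annotated as an actin binding protein, had 42.1%, 0.368% and 1.92%. CDF2 is a DOF transcription factor that represses CONSTANS in the photoperiodic control of flowering. Its 3′ UTR (chromosome 5, plus strand, 15880713 to 15881400) was at 52.9% in WT against 13.4% (h3.3kd 1) and 11.6% (h3.3kd 2), and the coding end at 63.2%, 60.4% and 67.6%. Its 6 methylated WT dyads lay 397 to 589 bases after the stop codon, far from the coding sequence. SPC98, a component of the gamma-tubulin complex that nucleates microtubules, was at 58.1%, 15.7% and 19.7%, and AT5G65000, a nucleotide-sugar transporter, at 57.2%, 15.6% and 19.5%. Another mRNA translates 240 of the 449 bases of AT5G65000, and all 7 of its dyads lay in them. Over these 10 the h3.3kd mean fell by 39.7 to 51.5 points from WT, and the limma adjusted p was 0.389 for each.

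**Figure D4:**
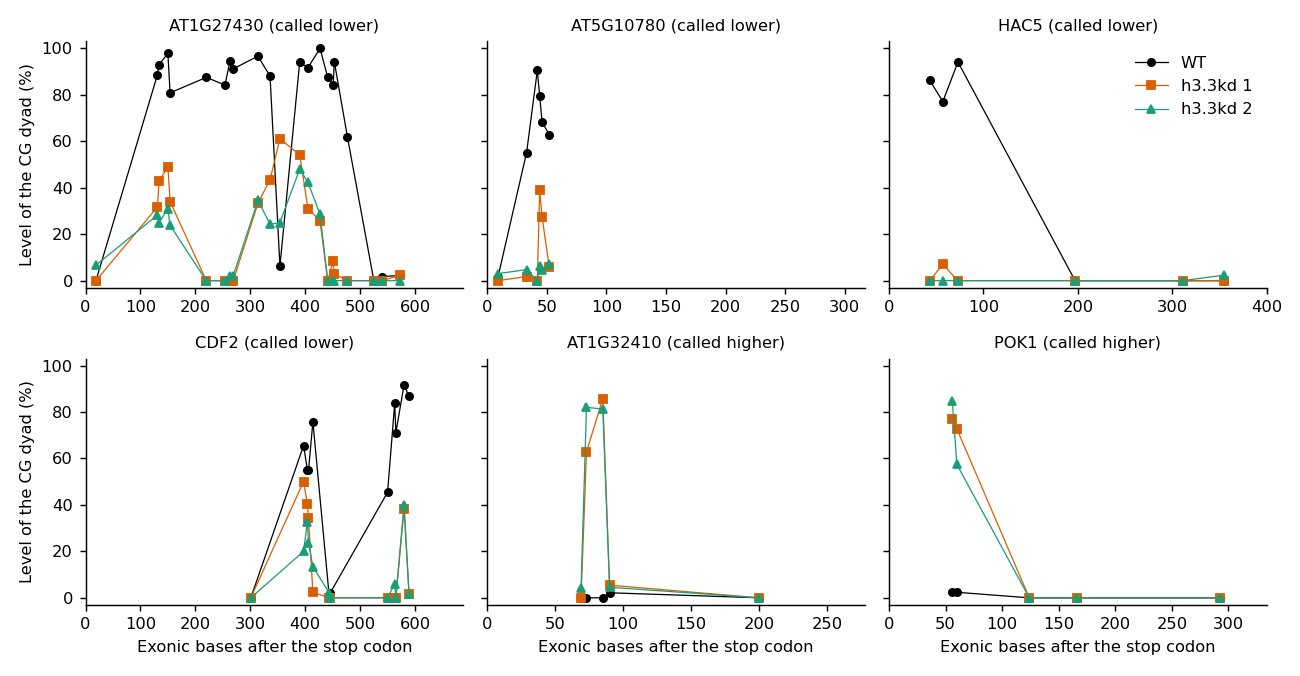
Level of each CG dyad (%) by exonic distance from the stop codon in 6 3′ UTRs, in each library, with the axis ending at the TES. In HAC5 the 3 methylated dyads of WT lay 43 to 73 bases after the stop codon, in CDF2 the 6 methylated dyads lay 397 to 589 bases after it, and in AT1G32410 and POK1 the dyads methylated in h3.3kd were at 2.44% or less in WT.

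The 6 3′ UTRs called higher with the largest differences were named by the same rule. AT1G32410, of the VPS55 family of vacuolar sorting proteins, was at 0.442% in WT against 32.2% (h3.3kd 1) and 34.3% (h3.3kd 2) (chromosome 1, plus strand, 11695298 to 11695575). Its coding end was methylated in every library, at 51.3%, 54.7% and 48.2%. POK1, a kinesin that guides the plane of cell division, was at 0.901%, 31.7% and 31.4% (chromosome 3, plus strand, 5946206 to 5946539). Its coding end was at 0.262%, 0.212% and 0.236%, so the h3.3kd libraries were not above WT there. AT2G22050, a kelch repeat protein, was at 19.4%, 49.1% and 45.6%. PPR40, a mitochondrial pentatricopeptide repeat protein, was at 1.97%, 28.0% and 29.1%, and CPK13, a calcium-dependent protein kinase, at 0.183%, 30.3% and 26.1%. In CPK13 150 of the 643 bases are translated in another mRNA. AT5G44520 was at 21.3%, 63.0% and 46.9%, where the h3.3kd libraries differed most. The limma adjusted p was 0.389 for 5 of them and 0.409 for AT5G44520.

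In CHG, 6 of 14,719 3′ UTRs were called lower (0.0408%, against 0.031% of all gene parts) and 2 higher (0.0136%, against 0.0179%). AT3G27250 fell from 71.0% in WT to 19.1% (h3.3kd 1) and 8.14% (h3.3kd 2), while its coding end was at 0.67% CG or less in every library. AT5G28900, a calcium-binding EF-hand protein, had 54.9%, 25.4% and 17.2% CHG, and its CG stayed high at 94.6%, 85.3% and 78.7%. COBL5, a COBRA-like protein, had 29.9%, 1.2% and 6.83% CHG, and its CG was at 54.2%, 3.43% and 16.4%. The others lay outside the naming rule and were named after their values were seen. They were AT3G09960 (79.6%, 0.962% and 27.5%), AT5G27730 (40.3%, 13.0% and 18.2%) and AT5G36228 (51.8%, 30.8% and 23.2%) among the lower, and AT1G75945 (0%, 32.3% and 29.2%) and AT2G22890 (7.20%, 30.2% and 29.8%) among the higher. AT1G75945 was not changed in its 3′ UTR alone, with CG of 1.11%, 86.8% and 81.6% in its coding end and 1.38%, 78.7% and 85.8% in its flank. The coding end of AT3G09960 was also lower in CG, at 75.6%, 6.63% and 23.2%. CG of the coding end was at 67.0%, 58.8% and 52.5% in AT5G27730, 92.0%, 92.2% and 89.4% in AT5G36228, and 8.33%, 5.68% and 6.58% in AT2G22890. In CHH 1 of 16,965 was called lower (0.00589%, against 0.0021% of all gene parts), AT3G09960, and 0 higher (0.00105% of all gene parts).

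The 3′ UTRs of genes that act on methylation, on H3.3 or on mRNA 3′ ends were looked up from fixed lists. Of 17 genes for DNA methylation and demethylation 14 had a 3′ UTR in the set and 11 were tested. All 11 were under 2% in WT and 0 were called, where 1.28% of all tested 3′ UTRs were called lower and 0.19% higher, so a count of 0 in a list this short is near the background. They included MET1 (0.282% in WT against 0% (h3.3kd 1) and 1.02% (h3.3kd 2)), the chromatin remodeller DDM1 (0%, 1.17% and 0.455%), the demethylase ROS1 (0%, 0.935% and 1.82%) and the chromomethylase CMT3 (0.462%, 0.227% and 0.229%). The highest in WT were DML3, a demethylase, at 1.23%, 0% and 1.99%, and CMT2, a chromomethylase, at 0.694%, 0.683% and 0.733%. The median difference was 0.36 points, against 0 over all tested 3′ UTRs.

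Of 19 genes for H3.3, H3 chaperones, linker histones and H2A.Z, 12 had a 3′ UTR in the set and 10 were tested, 0 were called (against the same 1.28% and 0.19%), and the median difference was -0.0166 points. The 3′ UTRs of the H3.3 genes were unmethylated, with 0% in WT and in h3.3kd 2 for HTR4, HTR5 and HTR8 and 2.03%, 0.461% and 0.658% in h3.3kd 1. The highest of those tested was HIRA, the H3.3 chaperone, at 31.6% in WT against 13.1% (h3.3kd 1) and 1.44% (h3.3kd 2) over 3 dyads and 117 to 139 calls. It missed the call because h3.3kd 1 was less than 20 points below WT. The Fisher adjusted p was 0.0051 for h3.3kd 1 and 5.3e-11 for h3.3kd 2. ASF1A and HTA8 were next, at 1.64%, 0% and 0.787% and at 1.18%, 0% and 1.05%.

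Of 29 genes for mRNA 3′ end formation 22 had a 3′ UTR in the set and 19 were tested, with 0 called (against 1.28% and 0.19% of all tested) and a median difference of 0.0365 points. In WT 16 were under 2%. The others were at 10% or more. CPSF160, a subunit of the complex that cleaves the pre-mRNA, was at 39.9% in WT against 28.1% (h3.3kd 1) and 32.7% (h3.3kd 2), and 474 of its 797 bases are translated in another mRNA. PCFS4, which resembles yeast Pcf11, was at 32.0%, 13.9% and 14.4%. CPSF73-I, the endonuclease that cuts the pre-mRNA, was at 10.8%, 0% and 0%. Their differences were under 20 points in both h3.3kd libraries.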

How the data were processed

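Per the methods of the study, identical reads were collapsed and mapped to TAIR10. The deposited files give, per library, the count of C and of T reads at each cytosine of either strand, not normalized. Between 1.23% and 1.25% of cytosines had their counts on 2 lines, which were summed. At most 2 positions per library were off a cytosine. Gene parts came from the RefSeq annotation of TAIR10.1, which has TAIR10 coordinates. Distances are exonic. Site means used cytosines read at least 4 times per library. CHG and CHH tests needed 4 cytosines. Fisher's exact tests ran over 83,059 gene parts for CG. limma 3.58.1 (R 4.3.3) was fitted to the log2 of C over T counts, each plus 0.5, and takes the spread of WT to be that of h3.3kd (1 residual and 1.32 prior degrees of freedom). Groups came from the genotype and replicate labels. Members, lists and naming rules (largest differences with at least 5 dyads and 100 calls, list members highest in WT, the 3 longest) were chosen with earlier results of these data known. The check for bases translated in another mRNA was added after seeing the levels.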

Additional observations from a re-analysis of the deposited data

How the results depend on the processing

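The CG difference over 3′ UTRs kept its direction under every alternative run, and so did the CHG level difference. The CHH difference stayed below 0 as a mean, but as the mean of site levels h3.3kd 1 was not below WT. Without members that another mRNA translates in part (chosen after seeing the data) the CG difference was -1.04 points and the CHG difference -0.167. With the mRNA of the longest coding sequence they were -1.09 and -0.173, and with 3′ UTRs kept whatever they overlapped -1.63 and -0.170. Without the 568 members within 1 Mb of HTR4 or HTR8 the CHG difference was -0.159. As means of site levels the CHG, CHH and last-100-base CG differences were -0.0545, -0.0066 and -0.386 points, and in genes with CHG under 5% they were -0.0496, -0.0176 and -0.524. Leaving out an h3.3kd replicate gave CG differences of -1.53 to -1.21.

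Counts of CG calls (lower, higher, then h3.3kd 2 below and above h3.3kd 1) were 121, 8, 21 and 9 with at least 5 dyads, 451, 82, 149 and 57 at 10 points, and 24, 6, 7 and 3 at 40 points. CHG calls were 15 lower and 4 higher at 10 points, 2 and 0 at 40 points, 0 higher with at least 10 cytosines and 1 higher at 200 bases or more. CHH calls were 5 lower at 10 points, 0 at 40 points and 0 at 200 bases or more. Without an h3.3kd replicate, CG gave 219 to 269 lower and 41 to 70 higher, and CHG 10 to 11 lower and 3 to 6 higher. limma called 0 lower and 0 higher in CG. No paired analysis was possible because WT had 1 library and its label carries no replicate number. The 1 WT library and a median of 5 dyads per tested 3′ UTR limit the precision.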

Other observations

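The 3 longest tested 3′ UTRs were looked up singly. AT3G29130, annotated as a KxDL motif protein (2943 bases), was at 34.1% CG in WT against 47.6% (h3.3kd 1) and 49.8% (h3.3kd 2), and its CHG was at 5.93%, 14.99% and 15.8%, so both contexts were higher in both h3.3kd libraries. AT2G48130, a lipid-transfer protein (2754 bases), was at 33.4%, 31.8% and 35.8%, with a coding end at 1.45% or less. AT2G07718, a cytochrome b/b6 protein (3279 bases with 119 dyads), was at 25.4%, 14.2% and 14.4%, on only 272 to 320 CG calls per library. The mean depth over all 3′ UTRs was 20.7 to 21.2 calls per cytosine, so few reads were mapped to this one. Whether those reads came from this locus was not tested, and its levels are not a sound measure of a change.

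By chromosome the CG difference of 3′ UTRs relative to WT was widest on chromosome 4, from 6.94% to 5.30% (h3.3kd 1) and 5.05% (h3.3kd 2), a change of -25.4%, and narrowest on chromosome 2, from 7.82% to 6.83% and 6.40% (-15.4%). On chromosomes 1, 3 and 5 the changes were -20.01%, -18.4% and -17.8%.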
